A study of Bos taurus with 12 samples.

Results

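Interferon-stimulated genes are the genes that a cell switches on when interferon binds its receptors. They were followed here in mammary biopsies of 12 multiparous Holstein cows in early lactation. A list of 46 such genes was read from the arrays by RefSeq accession, and 35 of them had a matched probe, of 12639 named genes on the array. The other 11 (DDX58, IFIH1, ZBP1, IFIT1, IFIT2, ISG20, ADAR, BST2, CMPK2, IFI44 and IFI44L) had no matched probe and were not analysed here. IFITM3 was matched through a synonym of the RefSeq entry LOC282255.

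For 4 days the 6 REST cows were given feed cut with barley straw, at 48% of its dry matter. The 6 CONT cows had free access to undiluted feed for lactating cows. Both groups entered at 24 ± 3 days in milk, and in both, 50 µg of lipopolysaccharide (LPS, the endotoxin of gram-negative bacteria) was infused into a healthy rear gland of the udder on the third day, with a biopsy 24 h later. There was no cow without LPS, so every level below is a level after LPS, and the comparison is between diets. The samples were whole tissue, 1 biopsy and 1 array per cow, so the number of cows sets the precision.

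LPS is sensed by TLR4, and the branch of that signal that runs through the adaptors TICAM2 and TICAM1 leads to interferon beta. Type I interferons bind IFNAR1 and IFNAR2, the kinases JAK1 and TYK2 are activated, and a complex that holds STAT2 and IRF9 turns on antiviral genes such as ISG15, MX1 and the OAS family. Interferon gamma signals without STAT2 and IRF9, induces IRF1, and is the classical inducer of the CXCR3 ligands CXCL9, CXCL10 and CXCL11 and of guanylate-binding proteins. In the udder these genes are known to respond to bacterial infection and to endotoxin.

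No member differed between the diets beyond the spread between cows. A level here is the log2 of the spot intensity minus the 75th percentile of its array, so a level of 0 equals that percentile and a step of 1 is a 2-fold step. A probe is called detected on an array where the scanner software marks it as well above background. With limma fitted on all 43653 probes, 0 of 35 members passed a Benjamini-Hochberg adjusted p of 0.05 (0% of all probes did), and each member had an adjusted p of 0.9999. None had an unadjusted p under 0.05 either, against 2.64% of all named genes. The lowest unadjusted p was 0.177, for IFI35. All 35 differences were smaller than the pooled SD between cows of one diet, and 29 were smaller than their own standard error. The groups overlapped for all 35 members, where 0.15% of named genes had groups that did not overlap.

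The direction was mixed. Of the 35 members, 14 had the higher mean in REST and 21 the higher mean in CONT, a share of 40% higher in REST against 43.5% of all named genes. The median difference (REST minus CONT) was -0.08 on the log2 scale over the members and -0.03 over all named genes. The differences ran from -0.65 (MX1) to 0.56 (CXCL9), and 3 members (8.57%) were past 0.5 in size, against 9.34% of all named genes. For 22 members the 95% interval of the difference stayed inside 2-fold in either direction (62.9%, against 70.3% of all named genes). For the other 13 the interval reached 2-fold in one direction or in both.

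**Figure D1:**
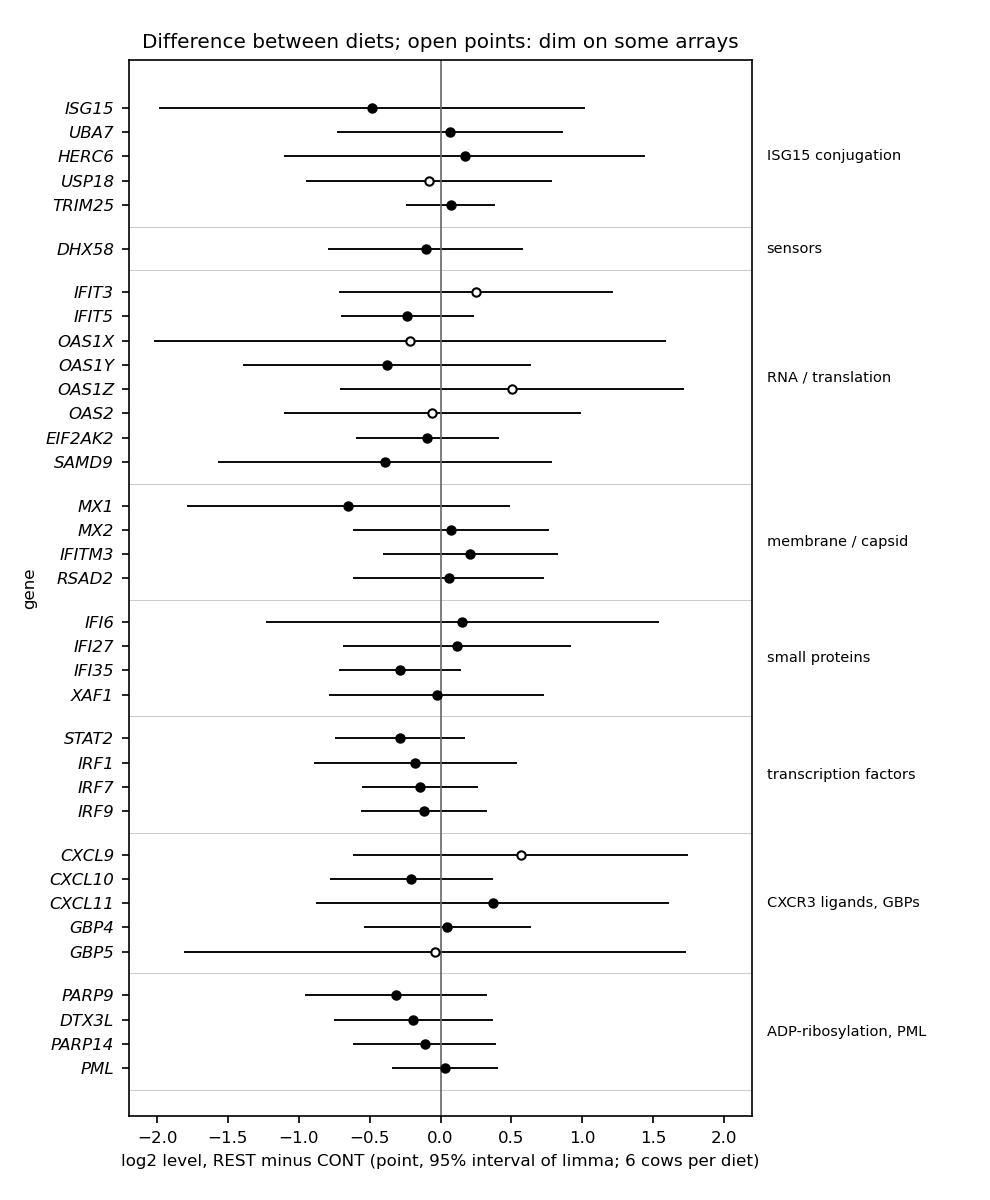
Difference in log2 level between the diets (x axis, REST minus CONT) for each of 35 genes (y axis, by role), with points for the limma estimate and bars for its 95% interval, 6 cows per diet. Open points are genes whose probe was not detected on some of the 12 arrays. All 35 intervals include 0.

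ISG15 is a ubiquitin-like protein that is attached to other proteins and is the usual first readout of type I interferon. Its levels ran from 0.14 to 3.37 in CONT (median 1.12) and from -0.61 to 2.70 in REST (median 0.38). In both diets 1 or 2 cows stood high, CONT cow 1024 at 3.37 and REST cows 7043 and 1058 at 2.70 and 2.44, and the lowest cows were REST cows 1015 and 0049. The mean was 1.28 ± 1.17 (SD, n = 6) in CONT and 0.80 ± 1.47 in REST, a difference of -0.48 (SE 0.69, exact permutation p = 0.530). Within slides 1, 2 and 3 the difference was -0.83, -0.52 and 0.41, and it was -0.24 with slide as a block. A second ISG15 probe followed the first across the cows (r = 0.99) with a difference of -0.39.

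The enzymes around ISG15 were as even. TRIM25, a ligase that also activates RNA sensing, was the steadiest, with levels of 3.74 to 4.09 in CONT (median 3.90) and 3.76 to 4.32 in REST (median 3.87). Its difference was 0.07 (SE 0.14, exact permutation p = 0.535), and its interval of -0.24 to 0.38 was the narrowest of the members. A dim TRIM25 probe, detected on 10 arrays, gave 0.88 and was the single one of 31 further member probes with an unadjusted limma p under 0.05. UBA7 (the E1 enzyme of ISG15), HERC6 (a ligase of the HERC family) and USP18 (which removes ISG15) had differences of 0.07, 0.17 and -0.08. USP18 was detected on 4 CONT and 5 REST arrays.

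DHX58, the regulator of the RIG-I-like receptors, was the one sensor with a probe. Its levels lay between -1.60 and -0.40 in CONT (median -0.85) and between -2.03 and -0.32 in REST (median -0.65). REST held both the highest and the lowest cow, and the difference was -0.10 (SE 0.32, exact permutation p = 0.803).

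Among the 8 effectors that act on RNA or on translation, 2 had the higher mean in REST. OAS1Y, a synthetase whose product activates RNase L, had levels of 2.06 to 3.87 in CONT (median 2.25) and of 1.07 to 3.42 in REST (median 2.11). CONT cow 1024 was again the highest and REST cows 0049 and 1015 the lowest. The difference was -0.38 (SE 0.47, exact permutation p = 0.468). IFIT5, which binds the 5′ end of foreign RNA, had levels of -0.54 to 0.34 in CONT (median -0.19) and -0.94 to 0.08 in REST (median -0.19), with a difference of -0.24 (SE 0.22, exact permutation p = 0.288).

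Of the other effectors of this group, OAS2, IFIT3, OAS1X and OAS1Z were near background. OAS2 was detected on 4 CONT and 3 REST arrays, with levels of -5.54 to -2.79 (median -4.78) and -5.47 to -3.87 (median -4.35), and differed by -0.06 (SE 0.48, exact permutation p = 0.929). IFIT3 was detected on 4 CONT and 6 REST arrays, with levels of -5.00 to -2.52 (median -3.43) and -4.33 to -2.38 (median -3.22). Its difference was 0.25 (SE 0.45, exact permutation p = 0.615), while its second probe gave -0.32. OAS1X was detected on 1 array of each diet and OAS1Z on 1 CONT and 2 REST arrays, so their differences of -0.21 and 0.51 rest on dim spots. OAS2, OAS1Y, OAS1X and OAS1Z follow each other in the RefSeq gene order. OAS1X, OAS1Y and OAS1Z are related genes whose probes may share signal, which was not tested. EIF2AK2, the kinase PKR that stops translation, and SAMD9 were detected on every array and differed by -0.09 and -0.39.

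MX1, a dynamin-like GTPase that traps viral capsids, had the lowest difference of all members. Its levels were -0.57 to 2.03 in CONT (median 0.07) and -1.32 to 0.98 in REST (median -0.40). The highest cow was CONT cow 1024, and 3 REST cows (0049, 1018 and 1015) lay below every CONT cow. The mean was 0.38 ± 0.98 (SD, n = 6) in CONT and -0.27 ± 1.02 in REST, a difference of -0.65 (SE 0.53, 95% interval -1.79 to 0.49, exact permutation p = 0.290). Its other probes gave -0.82 and -0.56. The slides held the diets unevenly, and within slides 1, 2 and 3 the difference in MX1 was -0.69, -0.70 and 0.18, and -0.34 with slide as a block.

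The remaining membrane and capsid effectors all had the slightly higher mean in REST. IFITM3, which blocks virus entry at the endosome, ran from 5.42 to 6.69 in CONT (median 6.06) and from 5.37 to 6.99 in REST (median 6.33), with a difference of 0.21 (SE 0.28, exact permutation p = 0.481). RSAD2 (viperin) ran from -2.90 to -0.72 in CONT (median -1.72) and from -1.99 to -1.13 in REST (median -1.78), with a difference of 0.06 (SE 0.31, exact permutation p = 0.868). MX2, the neighbour of MX1, differed by 0.07.

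Of the 4 small interferon-induced proteins, IFI35 had the lowest p of all members. Its levels were 2.93 to 3.98 in CONT (median 3.84) and 3.00 to 3.62 in REST (median 3.41). All 6 REST cows lay below the CONT mean of 3.66 ± 0.40 (SD, n = 6), and the lowest cow of all was CONT cow 8027. The difference was -0.28 (SE 0.20, exact permutation p = 0.160), and a second probe gave -0.32. It was negative within each of the 3 slides (-0.20, -0.55 and -0.04). IFI6 and IFI27, mitochondrial and membrane proteins, and XAF1, an inhibitor of the apoptosis inhibitor XIAP, differed by 0.15, 0.12 and -0.03.

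The 4 transcription factors all had the lower mean in REST, with differences of -0.29 to -0.12, and the intervals of all 4 stayed inside 2-fold. With slide as a block the differences were -0.14 for STAT2, -0.02 for IRF9, -0.12 for IRF7 and 0.05 for IRF1. STAT2 ran from 0.40 to 1.07 in CONT (median 0.93) and from -0.07 to 1.20 in REST (median 0.49). In CONT 5 cows were packed between 0.88 and 1.07, and in REST 4 cows were at or below 0.51. The difference was -0.29 (SE 0.21, exact permutation p = 0.184), and a dim second probe had the opposite sign (0.43).

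IRF9, the partner of STAT2, ran from 2.03 to 2.42 in CONT (median 2.16) and from 1.54 to 2.86 in REST (median 2.03), a difference of -0.12 (SE 0.20, exact permutation p = 0.569). IRF7, which amplifies type I interferon, ran from 1.79 to 2.61 (median 1.97) and from 1.62 to 2.39 (median 1.82), a difference of -0.15 (SE 0.19, exact permutation p = 0.435). IRF1 ran from 1.76 to 3.24 (median 2.49) and from 1.15 to 3.08 (median 2.56), a difference of -0.18 (SE 0.33, exact permutation p = 0.636). REST cow 0049 was the lowest of 12 for STAT2, IRF1 and IRF9.

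**Figure D2:**
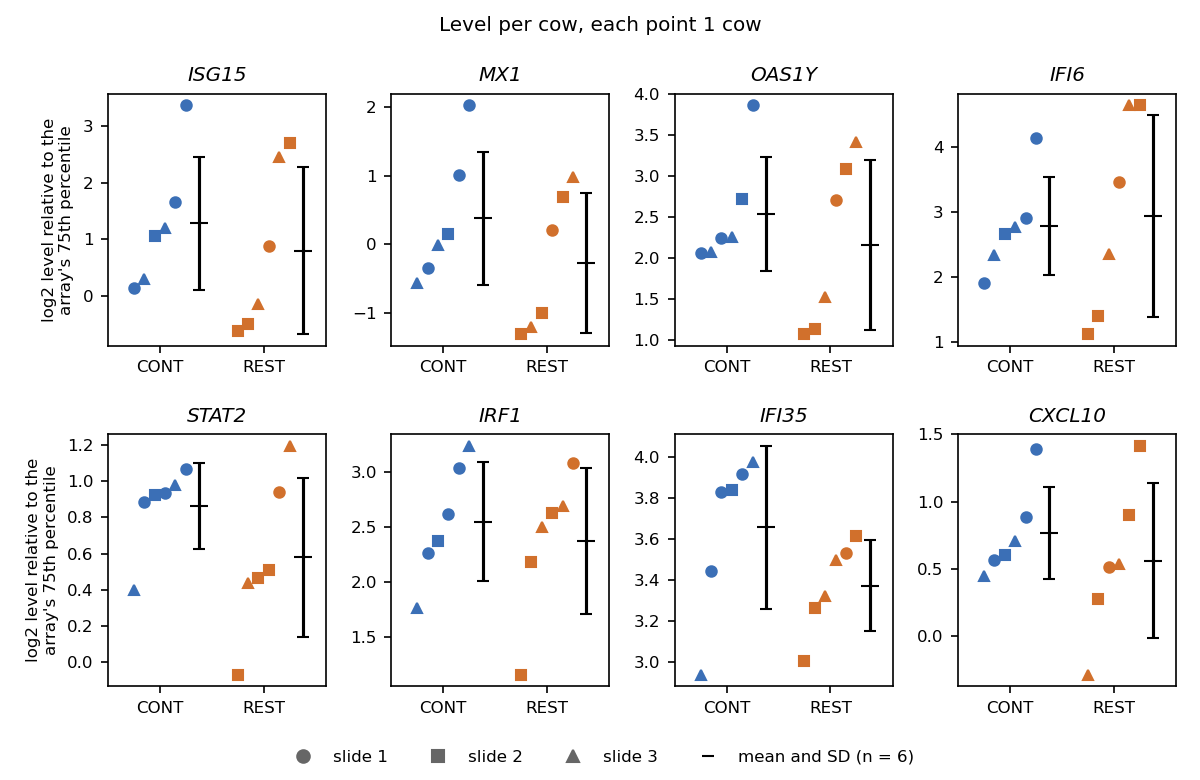
Log2 level relative to the array's 75th percentile (y axis) of 8 genes in CONT and REST (x axis), each point 1 cow, symbols giving the slide, black marks the mean and SD (n = 6). The diets overlap in all 8 panels, and ISG15, MX1 and OAS1Y each have CONT cow 1024 at the top.

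The chemokines that call CXCR3-bearing T cells, and the guanylate-binding proteins, were the group with the highest median pooled SD (1.04). That of CXCL10 was 0.47 and that of GBP4 0.49, below the median member. CXCL10 ran from 0.45 to 1.39 in CONT (median 0.66) and from -0.29 to 1.42 in REST (median 0.52), with a difference of -0.21 (SE 0.27, exact permutation p = 0.461). Its 3 probes all gave a negative difference, but the brightest did not follow the other 2 across the cows (r = -0.16 and -0.36), so the CXCL10 levels of single cows are uncertain. CXCL9 ran from -5.07 to -2.17 (median -3.05) and from -4.08 to -1.88 (median -2.23), with the highest difference of the members at 0.56 (SE 0.55, exact permutation p = 0.351). It was detected on 11 of 12 arrays, and the lowest level, that of CONT cow 1024, was the one not detected. Without that cow the CXCL9 difference was 0.20, and with another background correction (normexp) it was 0.21. CXCL11 differed by 0.37 and GBP4 by 0.05.

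GBP5, which drives inflammasome assembly, had a pooled SD of 1.57, which among the members was exceeded by that of the dim OAS1X alone. It ran from -3.12 to -0.21 in CONT (median -2.03) and from -5.23 to -0.13 in REST (median -1.17). The lowest level was that of REST cow 1015, whose array was the one on which GBP5 was not detected. The difference was -0.04 (SE 0.82, exact permutation p = 0.961). PARP9, which with its neighbour and partner DTX3L modifies histones after interferon, ran from -0.62 to 0.37 in CONT (median -0.04) and from -1.42 to 0.19 in REST (median -0.06), a difference of -0.31 (SE 0.30, exact permutation p = 0.331). DTX3L and PARP14, next to it in the RefSeq order, differed by -0.19 and -0.11. With slide as a block PARP9, DTX3L and PARP14 differed by -0.10, -0.14 and 0.0041. PML, the scaffold of nuclear bodies, ran from 0.14 to 0.83 (median 0.53) and from 0.19 to 0.98 (median 0.52), a difference of 0.03 (SE 0.17, exact permutation p = 0.823).

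Slide was uneven across diets, with 3 CONT and 1 REST cow on slide 1, 1 and 3 on slide 2, and 2 and 2 on slide 3. With slide as a block, 19 members had the higher estimate in REST and the median difference was 0.05. The estimate was lower in REST for 17 of 35 members within slide 1 (51.8% of all named genes), 26 within slide 2 (44.3%) and 8 within slide 3 (49.1%), so the slides differed in sign. One sign on all 3 slides was seen for 5 members (OAS2, IFI27, IFI35, GBP4 and PML, picked out after their values were seen). The share over all named genes was not counted, so this number is not read as few or many. No member had an unadjusted p under 0.05 with the block.

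Upstream of these genes, 47 ligands, receptors, inhibitors and inducers were listed and 35 had a matched probe. None passed an adjusted p of 0.05 and none had an unadjusted limma p under 0.05. Of the 35, 10 had the higher mean in REST (28.6%, against 43.5% of all named genes) and 25 the lower, with a median difference of -0.09 (-0.03 over all named genes). With slide as a block 16 were higher and 19 lower, with a median of -0.02. In bulk tissue, fewer cells of a type and less RNA per cell cannot be told apart, which holds for each level given here.

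The interferons themselves were close to the detection limit. Of 7 ligand genes with a probe, 1 (IFNT3, of the trophoblast interferons) was detected on all 12 arrays, and interferon genes are near copies, so this probe may read several. IFNB3, an interferon beta gene, was detected on 5 arrays of each diet at levels of -4.75 to -3.27 in CONT and -4.55 to -3.44 in REST. IFNG was detected on 2 CONT and 4 REST arrays and differed by -0.05 (SE 0.46, exact permutation p = 0.909). IFNK was detected on no array.

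The receptor and kinase genes had a median difference of -0.07. Of the 2 receptor chains for type I interferon, IFNAR2 differed by -0.06 and IFNAR1, detected on 4 arrays of each diet, by -0.31. With slide as a block IFNAR1 differed by 0.0039, and within slides 1, 2 and 3 by 0.63, -1.32 and 0.52. Among the inhibitors, SOCS3 was detected on 2 CONT and 0 REST arrays. Its difference of -0.81 (SE 0.52, exact permutation p = 0.188, limma adjusted p = 0.9999) therefore rests on spots near background. It was -0.09 with slide as a block, and 0.26, -0.80 and 0.18 within slides 1, 2 and 3.

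Among the 14 inducers with a probe, 2 had the higher mean in REST (14.3%, against 43.5% of all named genes) and 12 the lower. The median difference was -0.20 (-0.03 over all named genes). REST cow 0049 was the lowest of 12 for TLR4, MAVS, STING1, IKBKE, TRAF3, IRF5 and IRF8. The 2 inducers with the lowest p, named after their values were seen, were MAVS and TICAM2. MAVS, the mitochondrial adaptor of RNA sensors, ran from 0.91 to 1.45 in CONT (median 1.01) and from 0.19 to 1.18 in REST (median 0.73), and 4 REST cows lay below every CONT cow. Its difference was -0.35 (SE 0.18), with a limma p of 0.0752 (adjusted 0.9999) and an exact permutation p of 0.0498 that is not adjusted for the genes read. It was 0.18, -0.33 and -0.60 within slides 1, 2 and 3. TICAM2 differed by 0.30 (SE 0.16, exact permutation p = 0.0628), and 3 REST cows (0049, 7043 and 1015, all on slide 2) lay above every CONT cow. It was -0.20, 0.72 and 0.23 within slides 1, 2 and 3. TLR4 and MYD88, the receptor of LPS and its other adaptor, differed by -0.29 and 0.04.

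What the members did share was variation from cow to cow. The median pooled SD within a diet was 0.61 over the members and 0.44 over all named genes, and 26 of 35 members were above the median of all genes. Across the 12 cows the span from the lowest to the highest cow was 1.50-fold for TRIM25, 4.04-fold in the median member, 15.8-fold for ISG15, 11.6-fold for IFI6 and 10.2-fold for MX1. The cows lined up in much the same way for many members. CONT cow 1024 was above a gene's own mean for 30 of 35 members, and REST cows 7043 and 1058 for 28 each. REST cow 1015 was above the mean for 4 and REST cow 0049 for 6.

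Averaged over the 35 members, each centred on its own mean over the 12 cows, the level was 0.56 in CONT cow 1024, 0.50 in REST cow 1058 and 0.43 in REST cow 7043. It was -0.63 in REST cow 1015 and -0.62 in REST cow 0049, and it lay between -0.28 and 0.28 in the other 7 cows. REST thus held 2 of the 3 highest cows and the 2 lowest, and for 22 of 35 members its range was the wider one (62.9%, against 45.4% of all named genes). The array of CONT cow 1024 had the highest median signal of negative control spots (17.3, against 3.44 to 15.8 on the others) and the lowest share of detected probes (57.6%). The arrays of REST cows 7043 and 1058 had 4.96 and 3.71, and 68.5% and 74.5%. The arrays of REST cows 0049 and 1015 had the 2 lowest 75th percentile signals (386.9 and 508.5 intensity units, against 570 to 1184 on the others), and that percentile is the one each level is taken against. Both were on slide 2, as were REST cow 7043 (570) and CONT cow 9040 (799). The part of array signal and slide in the shared level was not tested.

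**Figure D3:**
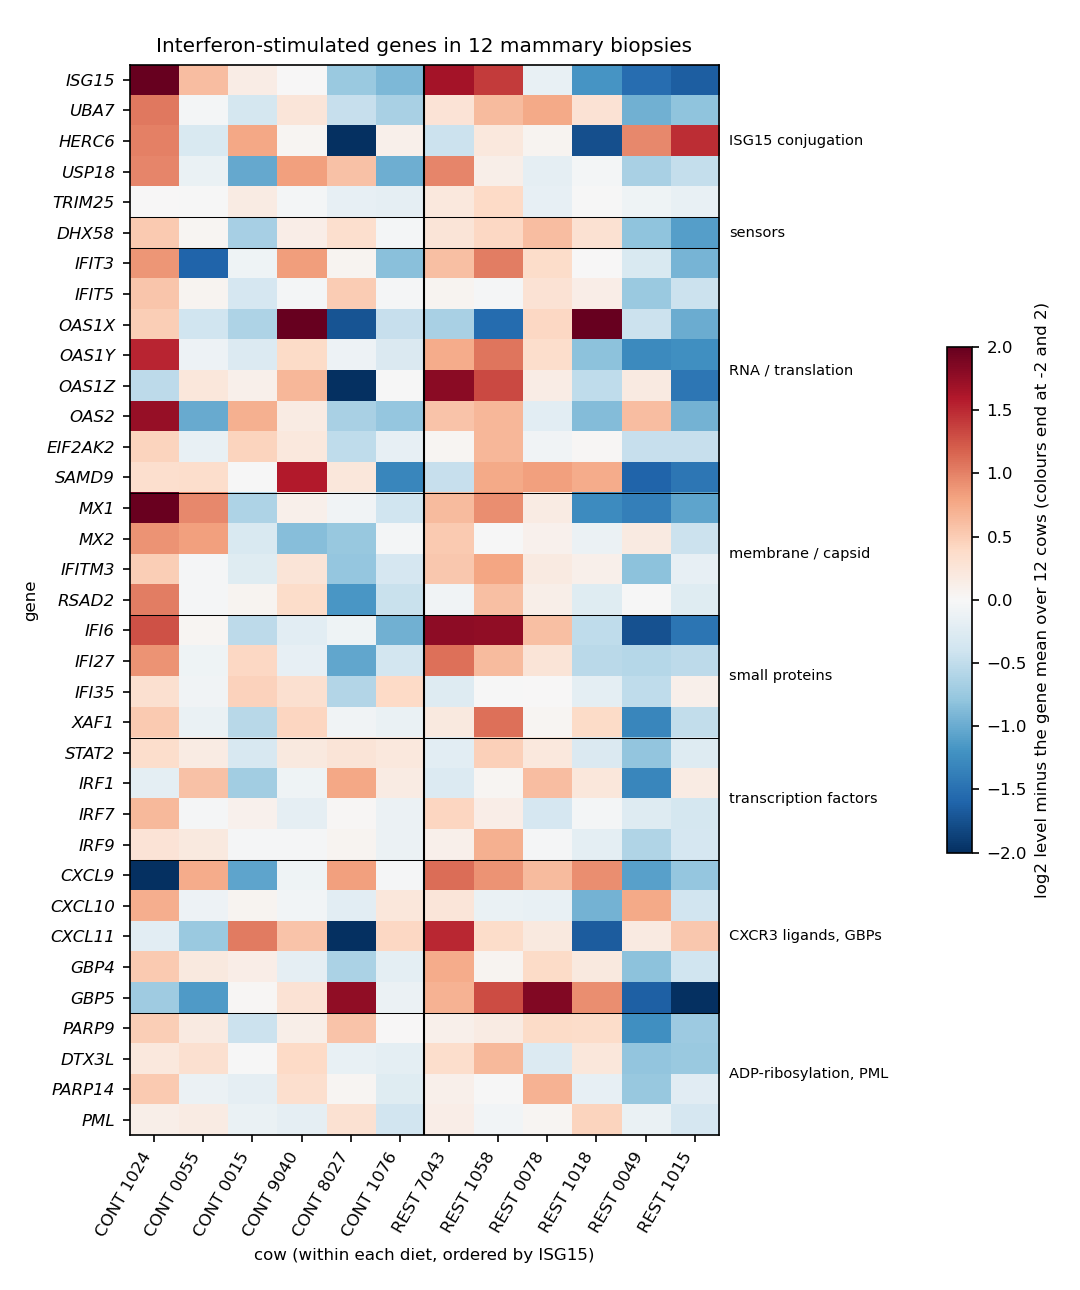
Log2 level of 35 genes (rows, by role) in 12 cows (columns, diets apart and ordered by ISG15 within each), each gene minus its mean over the cows, with colours ending at -2 and 2. CONT cow 1024 and REST cows 7043 and 1058 are mostly red and REST cows 0049 and 1015 mostly blue, while HERC6, IRF1 and the CXCR3 ligands break the pattern.

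ISG15 was used as the reference for this pattern, a choice made after its values were seen. Over the 12 cows, the other 34 members had a median Pearson r of 0.58 with ISG15, and 32 of 34 had a positive r. The other 12516 named genes measured on every array had a median r of 0.05, with 56.4% positive. An r over 0.7 was reached by 11 of 34 members (32.4%) and by 0.783% of the other genes (0.869% of all 12550 genes compared with ISG15). A permutation p under 0.05 for Pearson's r was reached by 16 of 34 members, against 6.77% of those 12550 genes. After Benjamini-Hochberg adjustment over all of them none passed (0% of all genes), the lowest adjusted p being 0.188. Each single relation is therefore a description, and the genes read in one cow share its array, its slide and its biopsy.

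OAS1Y (r = 0.92, Spearman rho = 0.88) and MX1 (r = 0.91, rho = 0.87) were closest to ISG15. Both had a permutation p for r of 3e-05 (adjusted 0.188), and p for rho of 0.00037 and 0.00047. IFI6 had r = 0.90 and rho = 0.85 (permutation p = 0.00013 and 9e-04), and IFI27 had r = 0.88 and rho = 0.87 (permutation p = 0.00026 and 5e-04). Among the transcription factors, IRF7 had r = 0.84 and rho = 0.83 (permutation p = 0.00045 and 0.00144) and IRF9 had r = 0.80 and rho = 0.91 (permutation p = 0.00085 and 0.00014). The adjusted p of these 4 for r ran from 0.314 (IFI6) to 0.464 (IRF9).

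The relations were read again without the diets, the slides or the extreme cows. With the mean of each diet removed, 12 members had an r over 0.7 (1.05% of other genes), and with the mean of each slide removed, 13 (1.17%). Leaving out the 2 cows farthest from the ISG15 median, CONT cow 1024 and REST cow 7043, left 8 members over 0.7 (1.73% of other genes) and a median r of 0.54. Of the 11 members over 0.7 before, 7 stayed over it and 4 (UBA7, IFITM3, IRF7 and GBP4) did not, while TRIM25 was added. Then OAS1Y and MX1 each had r = 0.88, IFI6 0.86, IFI27 0.78 and IRF9 0.91, while IRF7 had 0.61. Within the 6 cows of a diet, 13 members were over 0.7 in CONT (38.2%, against 10% of other genes) and 15 in REST (44.1%, against 6%). Within a slide there were 4 arrays, too few for a value.

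**Figure D4:**
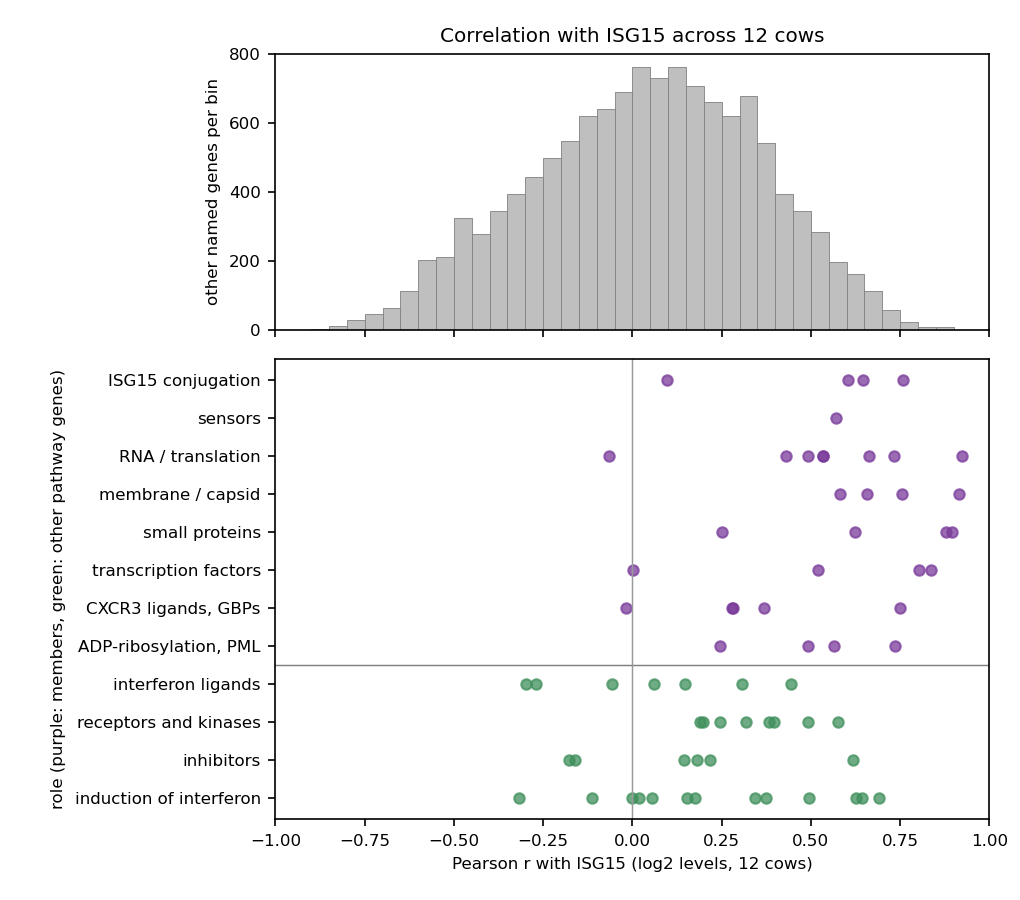
Pearson r with ISG15 over 12 cows (x axis). The upper panel counts 12516 other named genes per bin of r (y axis), and the lower panel has 1 point per gene by role, purple for the 34 other members and green for ligands, receptors, inhibitors and inducers. The median is 0.58 for the members and 0.05 for the other genes.

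Other members had an r near 0. IRF1 had r = 0.00 and rho = -0.24 (permutation p = 0.993 and 0.458), CXCL9 r = -0.02 and rho = 0.14 (permutation p = 0.955 and 0.668) and HERC6 r = 0.10 and rho = -0.08 (permutation p = 0.768 and 0.802). A second HERC6 probe followed the first with r = 0.995. The 3 highest cows for HERC6 were REST cow 1015 (2.35), CONT cow 1024 (1.88) and REST cow 0049 (1.83), the first and last of which were the lowest for ISG15. For 5 members the relation had opposite signs in the diets, with HERC6 at 0.60 in CONT and -0.26 in REST, IRF1 at -0.34 and 0.17 and OAS1X at 0.24 and -0.39. The r of CXCL9 was -0.73 in CONT and 0.75 in REST (n = 6 each) and 0.43 without the 2 farthest cows, and the one array on which it was not detected was that of CONT cow 1024, the highest for ISG15. The r of GBP5 was -0.61 in CONT and 0.65 in REST, and none of these differences between the diets was tested. CXCL10 had r = 0.37, CXCL11 0.28 and GBP5 0.28 over the 12 cows, while GBP4 was closer to ISG15 (r = 0.75, rho = 0.73, permutation p = 0.00484 and 0.00902, adjusted 0.625 for r, and r = 0.58 without the 2 farthest cows). The CXCR3 ligands and guanylate-binding proteins had a median r of 0.28 against 0.75 for the small proteins and 0.71 for the membrane and capsid effectors. The OAS neighbours differed too, with 0.66 for OAS2, 0.53 for the dim OAS1Z and -0.07 for OAS1X.

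**Figure D5:**
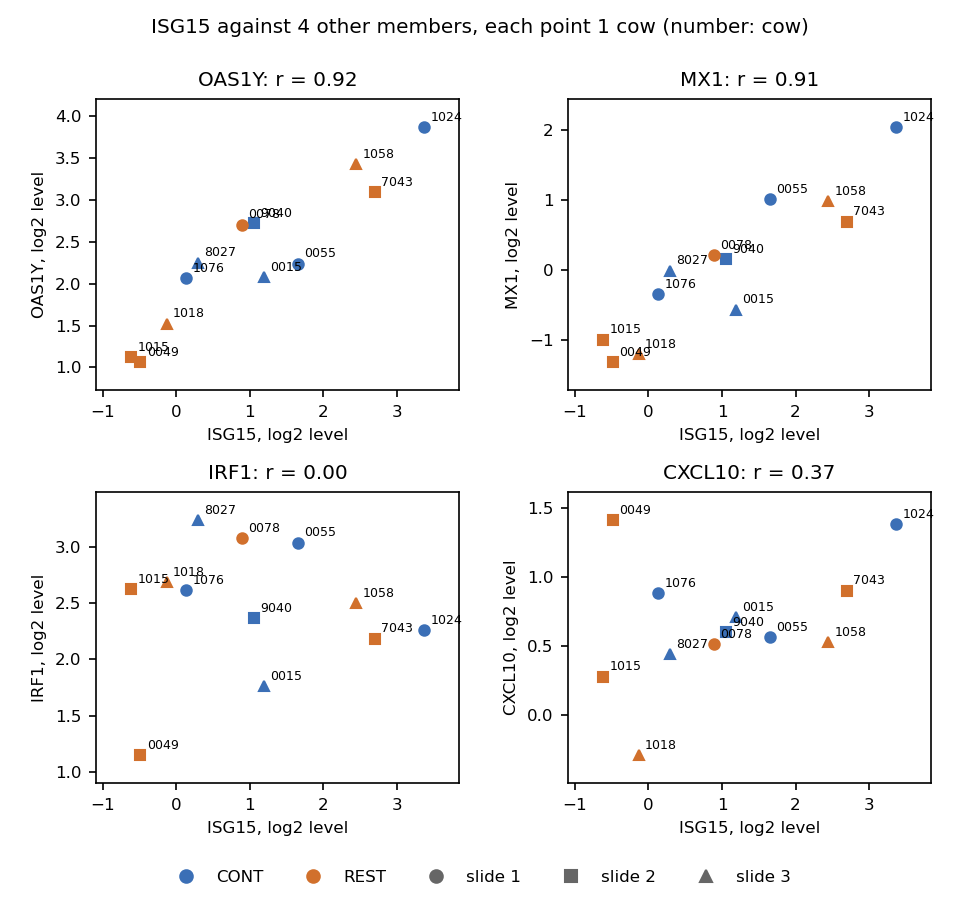
Log2 level of ISG15 (x axis) against OAS1Y, MX1, IRF1 and CXCL10 (y axis, 1 panel each) in 12 cows, colours giving the diet, symbols the slide and labels the cow number. OAS1Y and MX1 are higher where ISG15 is higher (r = 0.92 and 0.91), while IRF1 has no such order (r = 0.00).

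The same measure was read for the upstream genes, without a test of their difference from the members. A permutation p under 0.05 for Pearson's r was reached by 5 of 34 (6.77% of all genes), and none passed after adjustment. The median r was 0.06 for the 7 ligands, 6 of which were not detected on some arrays, with IFNB3 at 0.44 and IFNG at -0.06. It was 0.35 for receptors and kinases, 0.16 for inhibitors and 0.18 for inducers, where MYD88 (0.69), IRF5 (0.64) and IRF8 (0.63) were the highest.

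Cell type markers were read in the same way, and none passed adjustment. The median r with ISG15 was 0.57 for 5 neutrophil markers, 0.52 for 6 monocyte and macrophage markers and 0.50 for 4 markers shared by leukocytes. It was 0.12 for 7 markers of milk-secreting epithelium, 0.12 for 10 of T and NK cells, 0.11 for 5 of B and plasma cells and -0.15 for 5 of endothelium. The neutrophil markers ran from 0.23 (CXCR2) to 0.74 (FCGR3A), the monocyte and macrophage markers from -0.14 (LYZ) to 0.63 (CSF1R), and the T and NK cell markers from -0.55 (CD3D, with CD2 at -0.51) to 0.37 (NKG7). FCGR3A, an Fc receptor of neutrophils, NK cells and macrophages, had r = 0.74 and rho = 0.76 (permutation p = 0.00523 and 0.00533, adjusted 0.625 for r, and r = 0.67 without the 2 farthest cows). The summed level of the 4 leukocyte markers (PTPRC, CORO1A, LCP1 and LAPTM5, in multiples of the array's 75th percentile) was lowest in REST cows 0049 (14.8) and 1015 (20.9). It was 34.5, 42.1 and 63.2 in CONT cow 1024 and REST cows 7043 and 1058. The sum is mostly that of LAPTM5, while the log2 level of PTPRC was the highest in CONT in cow 1024 (1.61). The order of the sum was not that of ISG15 throughout, since cow 1024 was near the CONT median of 33.2. REST cow 1018 had 48.2 with an ISG15 level of -0.13, CONT cow 9040 56.6 with 1.06 and REST cow 0078 49.7 with 0.89. Over the groups the leukocyte sum ran from 23.9 to 56.6 in CONT and from 14.8 to 63.2 in REST, so the diets overlapped. Other lists differed in cows 0049 and 1015. The T and NK cell sum, where CD3D and CD4 are the brightest, was highest in them (54 and 47.3, others 30.5 to 43.1). CD3E, CD8A, NKG7 and KLRK1 of that list were lowest in cow 0049. The B and plasma cell sum was highest in cow 0049 (13.5) and 10.9 in cow 1015. The neutrophil sum was lowest in cow 0049 (3.15) and 3.98 in cow 1015.

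The epithelial markers did not move together in these cows. Their summed level, which is mostly that of the milk proteins CSN1S1 (saturated on 1 array) and LALBA, was highest in REST cows 0049 (2706) and 1015 (2231), against 1304 to 1896 in the 3 cows with high ISG15. The log2 levels of the keratin KRT18 were the 2 lowest in cows 0049 and 1015 (0.96 and 1.83), and KRT8 was lowest in cow 0049 (2.40). The keratin KRT19 (7.34) and ELF5 (7.32) were instead highest in cow 0049, and were 6.53 and 7.06 in cow 1015. EPCAM was 3.67 and 4.06 in cows 0049 and 1015. The sum ran from 628 to 2068 in CONT and from 806 to 2706 in REST. The tissue label was checked on these markers, and all 7 with a probe were detected on every array. Between the diets, 6 of 53 markers had an unadjusted limma p under 0.05 (2.64% of all named genes) and none an adjusted p under 0.05. Of 6 fibroblast markers, 5 had the lower mean in REST, with a median difference of -0.63, and LUM, a proteoglycan of the matrix, differed by -0.84 (SE 0.24, exact permutation p = 0.00866, limma adjusted p = 0.9999). LUM was 0.17, -0.94 and -1.51 within slides 1, 2 and 3. With slide as a block LUM differed by -0.83, COL1A1 by -0.39, COL1A2 by -0.45, COL3A1 by -0.31, DCN by -0.23 and PDGFRA by 0.30. All 5 endothelial markers had the higher mean in REST, with a median difference of 0.50 that was 0.15 without CONT cow 8027, the lowest of 12 for all 5. VWF, a clotting protein, differed by 0.79 (SE 0.30, exact permutation p = 0.00433, limma adjusted p = 0.9999). Of the defining markers, only NCR1 of the NK list was detected on no array. The part of cell content in the shared level of the interferon-stimulated genes was not tested.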

How the data were processed

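Total RNA (100 ng) from 1 mammary biopsy per cow was labelled with Cy3 and hybridised to 12 bovine 44K arrays, 4 per slide. Scanner files of Agilent Feature Extraction 11.0.1.1 (protocol GE1_1100_Jul11, array grid on bosTau6:UMD_3.1:Nov2009) were deposited by the authors, and their processed signal, a background-corrected intensity on a linear scale, was used. The deposited series matrix held the same intensity values. As in the study's methods, each array's log2 intensity was shifted by its 75th percentile over non-control spots. Spots marked as outliers were set to missing, which touched no member's brightest probe, and spots of one probe were averaged. The 75th percentile of intensity ran from 577 to 1184 in CONT and from 387 to 1082 in REST, and 57.6% to 78.1% of probes were well above background, without saturated spots among the members. The number of cows limits the precision.

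Probes were named through RefSeq accessions in the gene table of assembly ARS-UCD2.0 (26832 of 43653 probes, 12639 genes). Since the builds differ, no coordinates are given. Each gene was read from its brightest probe.

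REST and CONT were compared with limma 3.58.1 (R 4.3.3, two-sided, Benjamini-Hochberg over all probes), tested on simulated data, and for single genes with an exact permutation test over the cows (two-sided, 924 assignments, smallest possible p 0.00217, not adjusted). Each cow is a separate animal. Correlations used 100000 permutations (smallest possible p 1e-05, Python 3.11.15, scipy 1.17.1). Alternatives were Westfall-Young over 100 splits, quantile normalization, normexp background correction (offset 50, on median spot signals), the series matrix, a filter on dim probes, outlier spots kept, slide as a block, slide 1 left out, an intensity trend, the mean over all probes and each cow left out.

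Full values were given for members with an unadjusted p under 0.05, for the member with the lowest p and with the brightest probe in each role, and for ISG15, MX1, RSAD2, OAS2, IFIT3, STAT2, IRF1, IRF7, IRF9, CXCL10 and GBP5. One gene of the rule is not reported here. The members and lists were chosen with earlier results of these data known.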

Additional observations from a re-analysis of the deposited data

Results flagged for a closer look

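In 3 of the 70 groups of 6 cows examined (35 members in each diet), 1 cow stood apart from the other 5 by more than 0.625 of the group's whole range, Dixon's 95% limit for 6 samples. Chance alone flags about 1 in 20 groups, which would be 3.5 here. OAS1Y was at 3.87 in CONT cow 1024, with the other CONT cows between 2.06 and 2.72. IRF7 was at 2.61 in the same cow, with the others between 1.79 and 2.06. STAT2 was at 0.40 in CONT cow 0015, with the others between 0.88 and 1.07.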

How the results depend on the processing

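No paired analysis was possible because the 12 cows are different animals and the replicate numbers carry no pairing. No member was called under any alternative, Westfall-Young included, and the number of members higher in REST ran from 12 to 19 and the median difference from -0.09 to 0.05 where no cow was left out. Without slide 1, 1 member (MX2, 0.66, limma adjusted p = 0.982) and 1 upstream gene (TICAM2, 0.51) had an unadjusted p under 0.05. Leaving out each cow in turn gave 0 members called, 0 to 1 with an unadjusted p under 0.05, 9 to 19 higher in REST and a median of -0.19 to 0.04. Without CONT cow 8027 the count higher in REST was 9 and IFI35, at -0.43, was the 1 member with an unadjusted p under 0.05 (limma adjusted p = 0.979). Upstream genes gave 0 to 3 with an unadjusted p under 0.05 and a median of -0.17 to 0.01, the 3 being SOCS3 (-1.18), TICAM2 (0.37) and MAVS (-0.44) without REST cow 0078. The cause was not tested.

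Of 20 genes with full values, 10 changed sign somewhere. With normexp, IFIT3 was -0.061, RSAD2 -0.031, GBP5 0.13 and PML -0.0040. With slide as a block, DHX58 was 0.14, IRF1 0.054 and GBP5 0.33. Without slide 1, IFIT3 was -0.19 and IRF7 0.0019. That setting also moved GBP5 to -1.09, ISG15 to -0.065 and MX1 to -0.23. With the mean over all probes, DHX58 was 0.02, IFIT3 -0.033, RSAD2 -0.0020, STAT2 0.074 and IRF1 0.11. With single cows left out, TRIM25 ran from -0.0032 to 0.11, DHX58 from -0.25 to 0.10, IFIT3 from -0.044 to 0.46, OAS2 from -0.27 to 0.28, RSAD2 from -0.17 to 0.27, IRF1 from -0.33 to 0.067, GBP5 from -0.41 to 0.61 and PML from -0.053 to 0.10. In the same way MX1 ran from -0.90 to -0.32, ISG15 from -0.86 to -0.066, OAS1Y from -0.63 to -0.11 and CXCL9 from 0.20 to 0.84, without a change of sign. STAT2 ran from -0.41 to -0.16, IRF7 from -0.24 to -0.032, IRF9 from -0.27 to -0.0092 and PARP9 from -0.43 to -0.098.

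The alternatives for the relation with ISG15 were chosen after seeing the data. The median r of the members was 0.48 to 0.63 with single cows left out, and 0.45 with normexp. Where cows of both diets were kept, 8 to 14 members had an r over 0.7, against 0.687% to 2.29% of other genes. The dim probes of OAS1X, OAS1Z, OAS2, USP18, IFIT3, CXCL9 and GBP5 limit what can be said of those genes.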

Other observations

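Of the 20 named genes with the highest r with ISG15, 5 were members of the list (OAS1Y, MX1, IFI6, IFI27 and IRF7). Among the other 15, picked out after their values were seen, ZNFX1, a helicase that senses viral RNA, had r = 0.87 and rho = 0.85 (permutation p = 0.00015 and 0.001). COA8, an assembly factor of mitochondrial complex IV, had r = 0.90 and rho = 0.91 (permutation p = 0.00013 and 0.00011). Both had an adjusted p of 0.314 for r over all genes, and r was 0.79 for ZNFX1 and 0.89 for COA8 without the 2 cows farthest from the ISG15 median.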
